A study of Mus musculus with 3 samples.

Results

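Klk6-positive oligodendrocytes of the mouse nucleus accumbens were compared with the oligodendrocytes of the same libraries in which no Klk6 transcript was counted. Oligodendrocytes were cells with 1000 to 6000 UMIs (random barcodes that mark each captured RNA molecule, so that its amplified copies count once), 300 genes or more and no more than 20% of UMIs from mitochondrial genes, in which Mog, Mag, Ermn and Cldn11, 4 genes of myelinating oligodendrocytes, summed to at least 3 UMIs with at least 2 of the 4 detected. Cells with any UMI of the astrocyte genes Aqp4 and Gja1 or the precursor genes Pdgfra and Cspg4, or with more than 1 UMI of the neuronal genes Snap25 and Syt1, were left out. Of 11625 deposited cells, 7282 lay inside the quality and UMI limits and 821 were gated as oligodendrocytes. Of these, 364 held at least 2 Klk6 UMIs and formed the positive arm, 337 held none and formed the negative arm, and 120 with exactly 1 entered neither arm.

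All cells came from Thy1::ChR2 mice, in which the Thy1 promoter, active in neurons, drives the light-gated channel ChR2. The tissue was the nucleus accumbens in a coronal slice of 400 um, and all 3 samples carried FLiCRE, a reporter system that records calcium rises coinciding with light, applied during stimulation of ChR2. The samples form 1 group with no unstimulated or unlabelled control, and the labels give no age. Cells fell into 3 libraries by the suffix of their barcodes, and the library number used below is only a name.

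Oligodendrocytes wrap axons of the central nervous system in myelin, and mature ones differ in the genes they transcribe. Klk6 encodes kallikrein 6, a secreted serine protease abundant in the spinal cord and in white matter, and it is a known marker of one mature subtype in mouse single-cell surveys (MOL2), whereas the gene for prostaglandin D synthase, Ptgds, marks others (MOL5 and MOL6). Interferon-response genes, which code for antiviral proteins and parts of antigen presentation, can be induced in oligodendrocytes as in most cells.

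Klk6 counts chose the cells and are given as a description. In libraries 1, 2 and 3 the share of oligodendrocytes with at least 2 Klk6 UMIs was 33.9% (64 of 189 cells, exact 95% binomial interval 27.2 to 41.1), 38.2% (156 of 408, 33.5 to 43.1) and 64.3% (144 of 224, 57.6 to 70.6). Intervals of this kind cover counting error only. The mean was 45.5% ± 16.4 (SD, n = 3), and library 3 stood above the others. Library 3 was also the deepest, with a median of 3842.5 UMIs in its oligodendrocytes against 1330 and 2156 in libraries 1 and 2. With every cell thinned to 1000 UMIs the shares were 28.0%, 28.9% and 36.2%, a mean of 31.0% ± 4.46 (SD, n = 3). Within the positive arm the median was 4, 6 and 7 Klk6 UMIs per cell and the highest single cell held 25, 34 and 47. Just inside the threshold, with exactly 2 UMIs, lay 15, 21 and 15 cells, and just outside it, with exactly 1, lay 38, 52 and 30.

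Outside the oligodendrocytes Klk6 was rare. The other classes were chosen, inside the same quality and UMI limits, by their own markers and without any UMI of Mog, Mag, Ermn or Cldn11. Cells carrying those oligodendrocyte transcripts were thus left out beforehand, so the contrast with oligodendrocytes is partly set by the rule. At least 2 UMIs were counted in 6 of 2731 neurons (0.220%), in 2 of 436 astrocytes (0.459%) and in 0 of 469 microglia, which allows a share of up to 0.640% (3 counts; the exact 95% upper limit is 0.784%). With libraries pooled, a single UMI or more was found in 5.93% of neurons, 4.82% of astrocytes, 3.84% of microglia and 3.40% of endothelial cells. In oligodendrocytes it was found in 484 of 821 cells (59.0%). Median depth was 2531 UMIs in those neurons and 2291.5 in those astrocytes, against 2201 over all gated oligodendrocytes. In library 2 the share of positive oligodendrocytes rose with depth, from 18.8% of cells under 1500 UMIs to 28.6% from 1500 to under 2500, 53.1% from 2500 to under 4000 and 84.4% from 4000 on. In library 1 it was 25.8%, 44.4% and 57.1% in the first 3 of these ranges. In library 3 it was 57.1% (8 of 14 cells), 16 of 32 cells, 57.5% and 74.3%, with no rise over the first 3 ranges beyond their intervals.

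**Figure D1:**
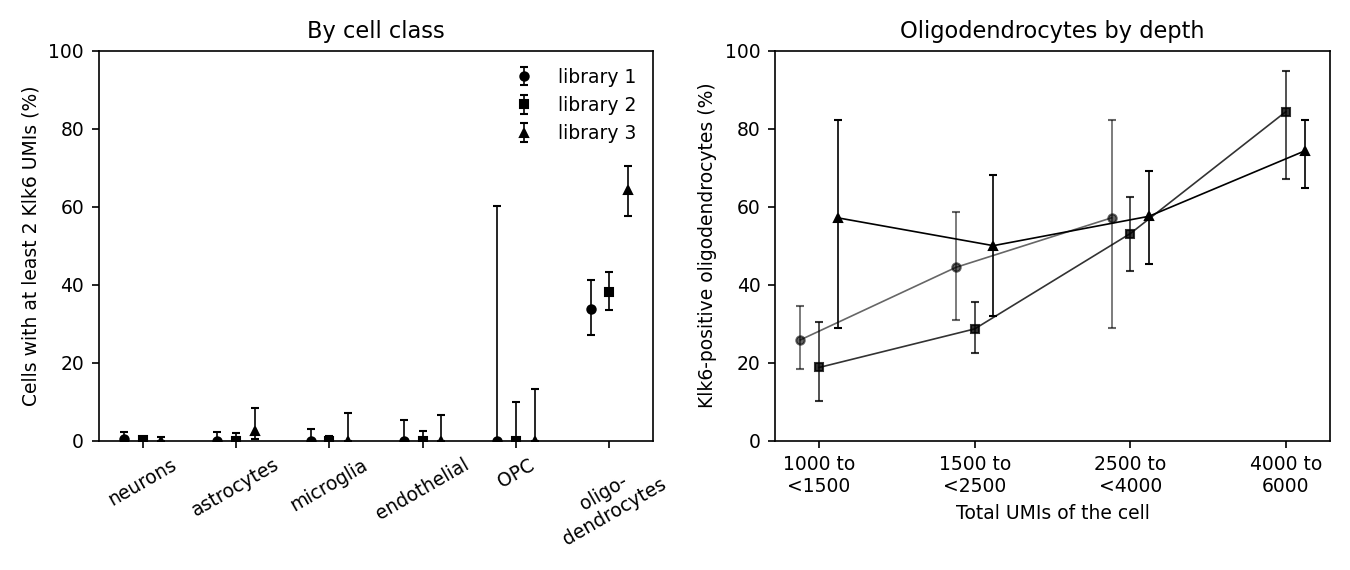
Share of cells with at least 2 Klk6 UMIs, in percent, by cell class (left; OPC, oligodendrocyte precursor) and among oligodendrocytes by total UMIs of the cell (right), with exact 95% binomial intervals and 1 symbol per library. Oligodendrocytes lie between 33.9% and 64.3%, every other class at or below 2.41%, and a bin with 1 cell (library 1, 4000 to 6000 UMIs) is left out. The other classes were gated to hold no UMI of Mog, Mag, Ermn or Cldn11.

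The arms therefore differed in depth. The median positive cell held 1520, 2588 and 4153 UMIs in libraries 1 to 3 and the median negative cell 1214, 1905.5 and 3461.5, a mean ratio of 1.27. The median mitochondrial share was 3.54%, 7.32% and 4.70% in the positive arm and 3.48%, 8.33% and 5.92% in the negative arm. For each gene the raw counts were summed per library and arm, so that cells were not treated as replicates, and the sums held 114313 to 560434 UMIs in the positive arm and 120357 to 411563 in the negative arm. Levels below are counts scaled to a common total of 1e+06 UMIs per sum (CPM), and log2 fold changes are positive minus negative. A lower sum can come from fewer cells with the transcript or from less of it per cell, and a sum alone cannot tell these apart. To set depth aside, 53, 113 and 48 pairs of a positive and a negative cell of 1 library whose total UMIs differed by at most 10% were also compared (called depth-matched pairs below). Gated cells of different libraries shared 0 barcodes.

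In the edgeR quasi-likelihood test with the library as block, 129 of 4471 genes tested (2.89%) passed a Benjamini-Hochberg adjusted p of 0.05, 88 higher (1.97%) and 41 lower (0.917%) in Klk6-positive cells. Counts of passing list members below are read against these shares. Klk6 and the 10 gate genes were left out of the fit. Of the 88, 84 were higher in all 3 libraries, and of the 41, 38 were lower in all 3. The CPM of the arms did not overlap for 44 of the 88 and 22 of the 41, against 8.21% of all genes tested. The median log2 fold change over all genes tested was -0.02. With this block, the p-values rest on how far the arm difference varied over libraries, not on the spread of levels between libraries. The fit estimates that variation partly from other genes. The labels do not say whether the libraries are separate animals, so that variation may be technical. Without the library term 0 genes passed in edgeR and 156 had an unadjusted p under 0.05. In depth-matched pairs 110 of the 129 genes could be tested, all 110 kept their sign and 50 passed again. The pairs are a subset of the same cells, so a kept sign is not independent evidence.

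**Figure D2:**
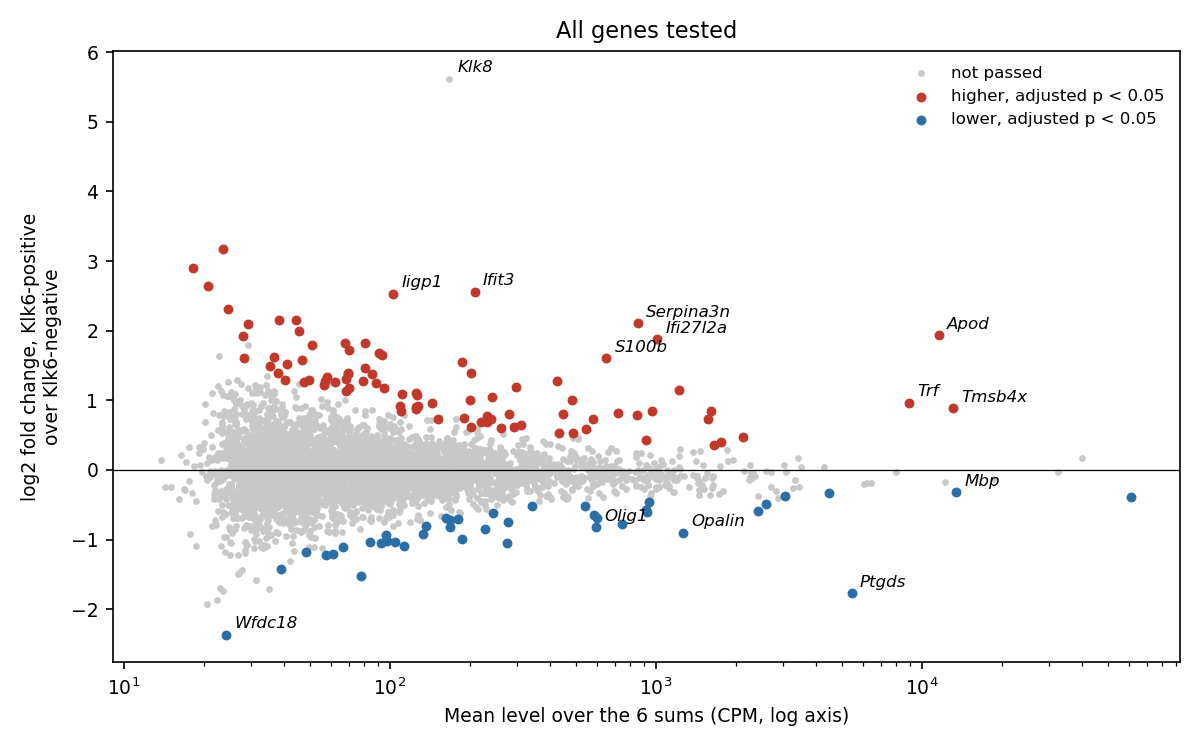
Each point is 1 of 4471 genes tested: mean level over the 6 sums (CPM, log axis) against the log2 fold change of Klk6-positive over Klk6-negative oligodendrocytes, red for the 88 that passed higher, blue for the 41 that passed lower. Apod (1.93) and Ptgds (-1.77) stand out among abundant genes, and Klk8 (5.62) lies far above the rest without passing.

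Apod, Ptgds and Serpina3n, all genes for secreted proteins, had the 3 smallest adjusted p-values. Apod, the gene for the lipid-binding apolipoprotein D (chr16:31296192-31314808, GRCm38.p6), stood at 24267, 15009 and 15868 CPM in the positive arm of libraries 1, 2 and 3 and at 5816, 3424 and 5142 CPM in the negative arm. All positive sums lay above all negative sums, and Apod rose by a log2 fold change of 1.93 (SE 0.10, edgeR adjusted p = 1.59e-23). Serpina3n, a serine protease inhibitor known as a marker of reactive glia (chr12:104406646-104414334), stood at 1513, 1255 and 1351 CPM against 399, 219 and 397 CPM. Those arms did not overlap either, and Serpina3n rose by 2.11 (SE 0.14, edgeR adjusted p = 1.47e-18). With every cell thinned to 1000 UMIs, a Serpina3n UMI was found in a mean of 64.6% of positive cells (55.8% to 73.4% over libraries) and 25.1% of negative cells (at most 34.0%). Apod was found at that depth in 98.1% or more of positive and 89.5% or more of negative cells of each library, so nearly every cell of both arms carried it.

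Trf codes for transferrin, the iron carrier that oligodendrocytes make. It stood at 9649, 12072 and 13911 CPM in the positive arm and 4861, 5739 and 7649 CPM in the negative arm, without overlap, and rose by a log2 fold change of 0.97 (SE 0.09, edgeR adjusted p = 3.53e-12). Sepp1, the selenium carrier selenoprotein P, rose by 1.14 (edgeR adjusted p = 4.58e-11), from 723, 882 and 679 CPM to 1505, 1721 and 1861 CPM. In depth-matched pairs the log2 fold changes were 2.02 for Apod, 1.08 for Trf and 1.02 for Sepp1, and Serpina3n passed again (edgeR adjusted p = 4.49e-09).

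Ptgds, the gene for prostaglandin D synthase (chr2:25466709-25470110), went the other way. It stood at 1618, 1832 and 4348 CPM in the positive arm and at 5733, 8288 and 10866 CPM in the negative arm. No positive sum reached a negative one, a log2 fold change of -1.77 (SE 0.11, edgeR adjusted p = 6.35e-20) that stood at -1.74 in depth-matched pairs. Apod and Ptgds are both listed for the Ptgds-high subtypes, yet they changed in opposite directions. Within single cells the count of Apod exceeded that of Ptgds in 98.4%, 88.5% and 86.8% of positive cells of libraries 1 to 3, in 86.8%, 63.5% and 56.7% of cells with 1 Klk6 UMI, and in 48.3%, 21.0% and 22.0% of negative cells. In every library the order of the classes was the same, and the mean was 91.2% ± 6.29 in positive and 30.4% ± 15.5 in negative cells (SD, n = 3). The pair was chosen after its fold changes were seen, so these shares restate them per cell and are not separate evidence. Of the 13 tested genes listed for the Ptgds-high subtypes, Apod, Trf and Sepp1 passed higher, Ptgds passed lower and 9 did not pass, with a median log2 fold change of -0.02. The share passing was 30.8%, against 2.89% of all genes tested. Il33 (-0.02, edgeR adjusted p = 0.979) and Car2, the gene for carbonic anhydrase 2 (-0.02, edgeR adjusted p = 0.971), were among those 9.

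**Figure D3:**
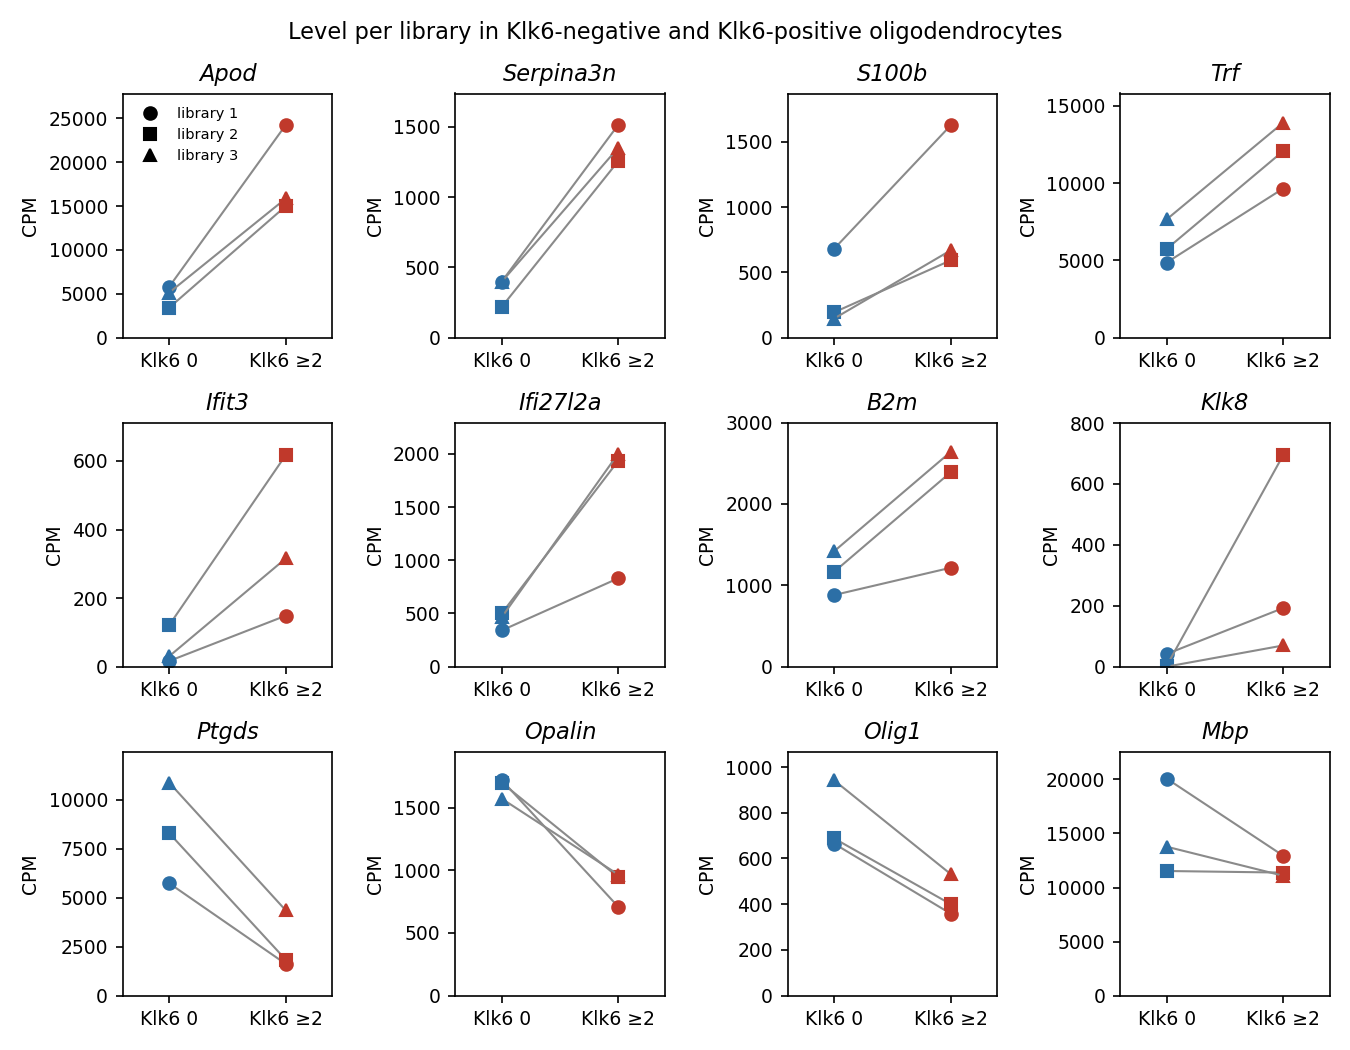
Level (CPM of summed counts) of 12 genes in Klk6-negative (blue) and Klk6-positive (red) oligodendrocytes, 1 line per library. Lines rise for Apod, Serpina3n, S100b, Trf, Ifit3, Ifi27l2a, B2m and Klk8, and fall for Ptgds, Opalin, Olig1 and Mbp, the last only slightly in library 2.

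Of the other kallikrein genes, Klk8 differed by the largest fold and did not pass. Klk8 encodes neuropsin, a secreted serine protease, and lies at chr7:43797532-43803826, between Klk9 (chr7:43791625-43796758) and Klk7 (chr7:43811294-43816387), with Klk6 at chr7:43824438-43832027. It was counted 22, 307 and 39 times in the positive arm of libraries 1, 2 and 3 and 5, 1 and 0 times in the negative arm. The arms did not overlap in CPM, but the 3 positive sums were far apart (192, 694 and 69.6 CPM), and the log2 fold change of 5.62 had a standard error of 1.02 and an edgeR adjusted p of 0.0724. Its call turned on the setting. It passed without library 1 (log2 fold change 7.99, edgeR adjusted p = 7.17e-71), without library 3 (5.58, 3.55e-41) and in depth-matched pairs (4.17, 2.12e-05), and DESeq2 gave an adjusted p of 0.0484. Without library 2, which held most of its counts, Klk8 fell below the low-count filter and was not tested, and without the library term it did not pass (5.01, edgeR adjusted p = 0.969). Few cells carried the transcript: 13 of 64, 34 of 156 and 13 of 144 positive cells held a Klk8 UMI, and in library 2 a single cell held 72 of the 307 counts and the 5 highest cells 179.

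Klk9 followed the same direction at low counts, 2, 11 and 16 in positive against 0, 0 and 1 in negative cells, and was too low to be tested. Klk7 was counted 5 times in all and Klk10 2 times. Of 26 kallikrein symbols other than Klk6, these 4 had any UMI in the arms. Among the 11 tested genes of the list of kallikreins, protease receptors and protease inhibitors, only Serpina3n passed (9.09%, against 2.89% of all genes tested), and the median log2 fold change was 0.34. Cst3, the gene for the cysteine protease inhibitor cystatin C, differed by -0.22 (edgeR adjusted p = 0.526).

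The genes listed with Klk6 for the MOL2 subtype were mostly scarce. Of 6, 4 could be tested and S100b alone passed. S100b codes for a calcium-binding protein of glia (chr10:76253836-76261319) and stood at 1627, 593 and 669 CPM in the positive arm and 681, 194 and 147 CPM in the negative arm. Library 1 was high in both arms, so the arms overlapped across libraries, but the positive sum was the higher within each library (log2 fold change 1.60, SE 0.15, edgeR adjusted p = 8.20e-13). Anxa5 (0.66, edgeR adjusted p = 0.220) and Mgst3 (0.76, edgeR adjusted p = 0.287) did not pass, and Hopx and Nkx2-9 were too low to be tested.

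Among S100 proteins and annexins, calcium-dependent proteins of which several bind membranes, 3 of 8 tested rose, 0 fell and the median log2 fold change was 0.79. That is 37.5% passing, against 2.89% of all genes tested. Anxa2 was counted 7, 29 and 37 times in positive and 1, 7 and 2 times in negative cells, or 61.2, 65.6 and 66.0 CPM against 8.31, 17.0 and 12.2 CPM. The positive sums were nearly equal and all above the negative ones, a log2 fold change of 2.15 (SE 0.43, edgeR adjusted p = 0.000648). S100a6 rose by 1.01 (edgeR adjusted p = 0.000655), but without library 2 it no longer passed (0.74, edgeR adjusted p = 0.200).

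Interferon-response and antigen presentation genes made up a second block of increases. Of 18 tested genes listed for antigen presentation and disease-associated oligodendrocytes, 12 rose, 1 (Sgk1) fell and the median log2 fold change was 0.80, against -0.02 over all genes. That is 72.2% passing, against 2.89% of all genes tested. The list was written with earlier results of these data known, and 2 of its 12 are Serpina3n and Trf. Ifit3, an antiviral protein induced by interferon (chr19:34583119-34588982), stood at 149, 617 and 316 CPM in the positive arm and at 16.6, 121 and 30.6 CPM in the negative arm. Each positive sum lay above every negative one, with library 2 highest in both arms (log2 fold change 2.56, SE 0.21, edgeR adjusted p = 8.21e-15). Ifi27l2a, another interferon-induced gene, stood at 831, 1936 and 2004 CPM against 341, 501 and 465 CPM (1.88, SE 0.13, edgeR adjusted p = 1.26e-17), again without overlap.

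Ifit1 (1.55, edgeR adjusted p = 6.48e-08), the interferon-inducible GTPase genes Iigp1 (2.53, 3.37e-10) and Gbp7 (2.16, 5.29e-05), and Irf7, a transcription factor of the interferon response (1.82, 5.34e-06), rose with them. Iigp1 was counted 13, 166 and 15 times in positive and 5, 23 and 1 times in negative cells, mostly in library 2. Irf7 stood at 17.5, 206 and 159 CPM against 16.6, 68.0 and 18.3 CPM. Gbp7 stood at 26.2, 133 and 55.3 CPM against 16.6, 29.2 and 6.11 CPM. Both rested on few counts in library 1, where the Irf7 arms were nearly equal. In the antigen presentation machinery, B2m, the light chain of MHC class I, stood at 1216, 2390 and 2641 CPM against 881, 1166 and 1419 CPM (0.85, SE 0.11, edgeR adjusted p = 1.06e-07). The positive sum of library 1 lay inside the range of the negative arm, and the other 2 lay above it. The class I heavy chain H2-D1 (0.73, edgeR adjusted p = 0.000270) and the immunoproteasome subunits Psmb8 (1.39, 2.59e-07) and Psmb9 (1.49, 0.0195) also rose. H2-K1 (0.75, edgeR adjusted p = 0.0106) was higher in 2 of 3 libraries. Paralogs such as H2-D1 and H2-K1, or Ifit3 and Ifit3b, can share reads, and how such reads were counted is not given in the sources used here.

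Several of these calls did not hold without 1 library or in depth-matched pairs. Without library 2, Bst2 (1.15, edgeR adjusted p = 0.109), C4b (0.53, 0.127) and H2-K1 (0.70, 0.290) did not pass. Without library 3, H2-D1 (0.58, edgeR adjusted p = 0.105), C4b (0.61, 0.0604), H2-K1 (0.65, 0.284) and Psmb9 (1.39, 0.0584) did not. In depth-matched pairs Ifit3 (2.15, edgeR adjusted p = 3.44e-05), Ifi27l2a (1.61, 2.23e-07) and B2m (0.81, 0.000218) passed again, while Ifit1 (1.06, 0.0635), Isg15 (0.75, 0.419) and Bst2 (0.63, 0.320) did not.

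A UMI of at least 1 of 5 such genes (Ifit1, Ifit3, Isg15, Irf7 and Iigp1) was found in 21.9%, 67.9% and 47.9% of positive cells and in 9.20%, 28.5% and 22.0% of negative cells of libraries 1 to 3. With every cell thinned to 1000 UMIs, an Ifit3 UMI was found in a mean of 18.1% ± 11.6 of positive cells (10.9% to 31.4% over libraries) and 4.60% ± 2.65 of negative cells (SD, n = 3). In cells without a UMI of the 5 genes, Apod still stood at 26076, 9497 and 14235 CPM against 5915, 2960 and 4728 CPM, and Serpina3n at 1347, 951 and 1151 CPM against 356, 179 and 383 CPM. Ptgds in the same cells stood at 1479, 1927 and 3125 CPM against 6007, 8340 and 11154 CPM. These 3 genes kept arms that did not overlap. B2m in these cells stood at 1143, 1088 and 1846 CPM against 785, 927 and 1362 CPM, higher in each library but overlapping. Psmb8 stood at 72.2, 96.7 and 30.4 CPM against 54.8, 121 and 38.3 CPM, lower in the positive arm of 2 libraries. Ifi27l2a stood at 649, 193 and 989 CPM against 347, 209 and 321 CPM, higher in libraries 1 and 3 but not in library 2. Cells were chosen here by transcripts that differ between the arms, so these levels are a description.

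The bases just upstream of some of these genes hold the motif that the transcription factors of the interferon response recognise. The interferon-stimulated response element was searched as GAAANNGAAA on both strands in the 250 bases before the start site that the RefSeq table of GRCm38.p6 promoters uses, which need not be a gene's outermost start. The motif was found for 14 of the 71 higher genes with a promoter in the table (19.7%), for 3 of 31 lower genes (9.68%), for 3.35% of the tested genes with a promoter and for 3.46% of all 27025 promoters. Matches can overlap within a window, and Ifit3 and Ifit3b share near-identical windows. The 14 were B2m, Bst2, Cd59a, Chl1, Cxcl14, Gbp7, H2-T22, H2-T23, Ifit1, Ifit3, Ifit3b, Igtp, Irgm1 and Isg15, of which several are interferon-response genes and Chl1 codes for a cell adhesion molecule. A match describes these letters and is not evidence of binding. The 4 stretches below show it beside genes described above, in the direction of each gene, with every match in capitals (in Isg15, 3 overlapping ones). A match that begins with TTTC is the same motif on the other strand. They lie at chr2:122147533-122147572 (B2m, plus strand), chr19:34640789-34640828 (Ifit1, plus strand), chr4:156200860-156200899 (Isg15, minus strand) and chr3:142530268-142530307 (Gbp7, plus strand).
B2m: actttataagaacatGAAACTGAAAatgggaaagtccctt
Ifit1: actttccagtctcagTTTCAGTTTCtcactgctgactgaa
Isg15: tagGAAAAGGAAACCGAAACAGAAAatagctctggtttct
Gbp7: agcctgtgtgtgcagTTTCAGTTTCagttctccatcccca

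Among the decreases were genes of the myelin sheath and of the oligodendrocyte lineage. Of 20 tested myelin genes 0 rose and 6 fell (Opalin, Mal, Tspan2, Gjc3, Cryab and Mbp), with a median log2 fold change of -0.30. Opalin, a membrane glycoprotein of the sheath (chr19:41061959-41077113), stood at 709, 945 and 965 CPM in the positive arm and at 1720, 1698 and 1571 CPM in the negative arm. Every negative sum was above every positive one (log2 fold change -0.90, SE 0.11, edgeR adjusted p = 3.43e-08). Mal, a gene for a membrane protein of lipid rafts, differed by -0.49 (edgeR adjusted p = 0.000790), the tetraspanin gene Tspan2 by -0.61 (0.000448) and Gjc3, a connexin gene, by -0.86 (0.000868).

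Not every myelin transcript was lower. Mobp, a myelin protein gene, stood at 5301, 3553 and 4008 CPM in the positive arm and at 6165, 2758 and 4036 CPM in the negative arm. The arms overlapped, and the difference did not pass (log2 fold change 0.05, edgeR adjusted p = 0.926). Mbp, myelin basic protein, fell by 0.32 on the log2 scale (edgeR adjusted p = 0.0439), from 20074, 11527 and 13776 CPM to 12947, 11380 and 11088 CPM. The Mbp difference in library 2 was small, and it did not pass without library 1 (-0.17, edgeR adjusted p = 0.688) or library 3 (-0.29, 0.0762). Cryab, a small heat shock protein gene (-0.34, edgeR adjusted p = 0.0357), was lost without library 2 (0.530) or library 3 (0.424), and Tspan2 without library 3 (-0.50, 0.0869). The gate genes were part of the rule and are given as values only. Mog stood at 1400, 988 and 1390 CPM in positive and 1604, 1191 and 1467 CPM in negative cells, lower in each library. Cldn11, Mag and Ermn were higher in each library. Cldn11 stood at 4715, 5740 and 6115 CPM against 3614, 3550 and 4812 CPM. Mag stood at 1443, 1282 and 1609 CPM against 1238, 1212 and 1535 CPM, and Ermn at 1365, 1938 and 2006 CPM against 1172, 1470 and 1816 CPM.

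Of 10 tested transcription factors of the lineage, Olig1 and Olig2 fell and 0 rose. Olig1 stood at 359, 400 and 532 CPM in positive and at 665, 688 and 942 CPM in negative cells, without overlap (log2 fold change -0.82, SE 0.13, edgeR adjusted p = 6.78e-06). Olig2 differed by -0.92 (edgeR adjusted p = 0.00884), but without library 3 it did not pass (-0.70, 0.450). Sox10 (-0.33, edgeR adjusted p = 0.446) and Myrf (0.15, 0.882), the factors that drive myelin gene transcription, did not pass. Among 6 tested genes of newly formed and myelin-forming cells, Opalin and Mal fell, while Enpp6, an early marker of differentiating oligodendrocytes, stood at 87.5, 79.2 and 83.9 CPM in positive and 24.9, 29.2 and 42.8 CPM in negative cells. Enpp6 rose by 1.33 (edgeR adjusted p = 0.0128) and did not pass without library 2 (1.22, 0.128).

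Of 28 tested genes of the cytoskeleton, 6 rose (Tmsb4x, Tubb3, Tppp3, Gsn, Dynll1 and Tuba1a), 1 (Mbp, also listed here) fell and 21 did not pass, with a median log2 fold change of 0.19. Tmsb4x, which codes for the actin-binding peptide thymosin beta 4, stood at 17251, 17357 and 16346 CPM in positive and 10128, 8038 and 9368 CPM in negative cells. The arms were far apart and tight within themselves (0.89, SE 0.09, edgeR adjusted p = 5.83e-11). Tubb3, a tubulin isotype best known from neurons, stood at 402, 656 and 726 CPM against 224, 250 and 287 CPM (1.27, edgeR adjusted p = 4.43e-09). Gsn, the actin-severing protein gelsolin, rose by 0.78 (edgeR adjusted p = 2.35e-05), and without library 2 it did not pass (0.53, 0.0678). Dynll1 (without library 1 0.31, edgeR adjusted p = 0.203) and Tuba1a (0.34, 0.0578) were less firm, and neither passed without library 2 either (0.48, 0.152 and 0.32, 0.390).

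At the contact of axon and glia, 2 of 18 tested genes rose and 1 fell (16.7% passing, against 2.89% of all genes tested), with a median of 0.09. Hapln2, a link protein of the node of Ranvier, stood at 586, 536 and 658 CPM against 249, 457 and 440 CPM (0.53, edgeR adjusted p = 0.0236), and Anln, which codes for the actin-binding and septin-binding protein anillin, rose by 0.78 (edgeR adjusted p = 0.00502). Sema6a, an axon guidance molecule, fell by 1.21 on the log2 scale (edgeR adjusted p = 0.0156). All 3 depended on 1 library or more. Hapln2 did not pass without library 1 (0.38, edgeR adjusted p = 0.112) or library 3 (0.56, 0.153), Anln without library 2 (0.76, 0.109) and Sema6a without library 3 (-1.34, 0.0509).

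The remaining lists are read against the 2.89% of all genes tested that passed. Of 19 tested genes of cholesterol synthesis and uptake and of 18 growth factor and receptor genes, 0 passed in edgeR or DESeq2, with medians of 0.10 and 0.04, and 1 and 3 had an unadjusted p under 0.05 in edgeR. Gpr37, a receptor of mature oligodendrocytes, differed by -0.41 (edgeR adjusted p = 0.118). Of 21 channel, transporter and connexin genes Gjc3 alone passed (4.76%). Of 21 iron and redox genes 2 passed (9.52%): Trf rose and Gstp1, a glutathione transferase, fell (-0.46, edgeR adjusted p = 0.0130), the latter not without library 2 (-0.47, 0.109) or library 3 (-0.36, 0.404). Fth1, the ferritin heavy chain, differed by 0.18 (edgeR adjusted p = 0.414).

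Genes that respond to handling or activity were mixed. Among 9 tested immediate early and dissociation genes Fos, the activity-induced transcription factor, rose (1.38, edgeR adjusted p = 0.000364) and Sgk1, a kinase induced by glucocorticoids, fell (-0.61, edgeR adjusted p = 0.0234), with a median of 0.28. Of these 9 genes 22.2% passed, against 2.89% of all genes tested. Fos was counted 7, 78 and 78 times in positive and 1, 28 and 10 times in negative cells and did not pass in depth-matched pairs (1.08, edgeR adjusted p = 0.182). Sgk1 did not pass without library 2 (-0.67, 0.178) or library 3 (-0.64, 0.287). Of 11 heat shock genes Cryab alone passed (9.09%). All 12 tested mitochondrially encoded genes had negative fold changes (-0.38 to -0.09), of which mt-Co1 passed (edgeR adjusted p = 0.0357) although it was higher in the positive arm of library 1. Without library 2 mt-Co1 stood at -0.26 (edgeR adjusted p = 0.535) and without library 3 at -0.20 (0.756).

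**Figure D4:**
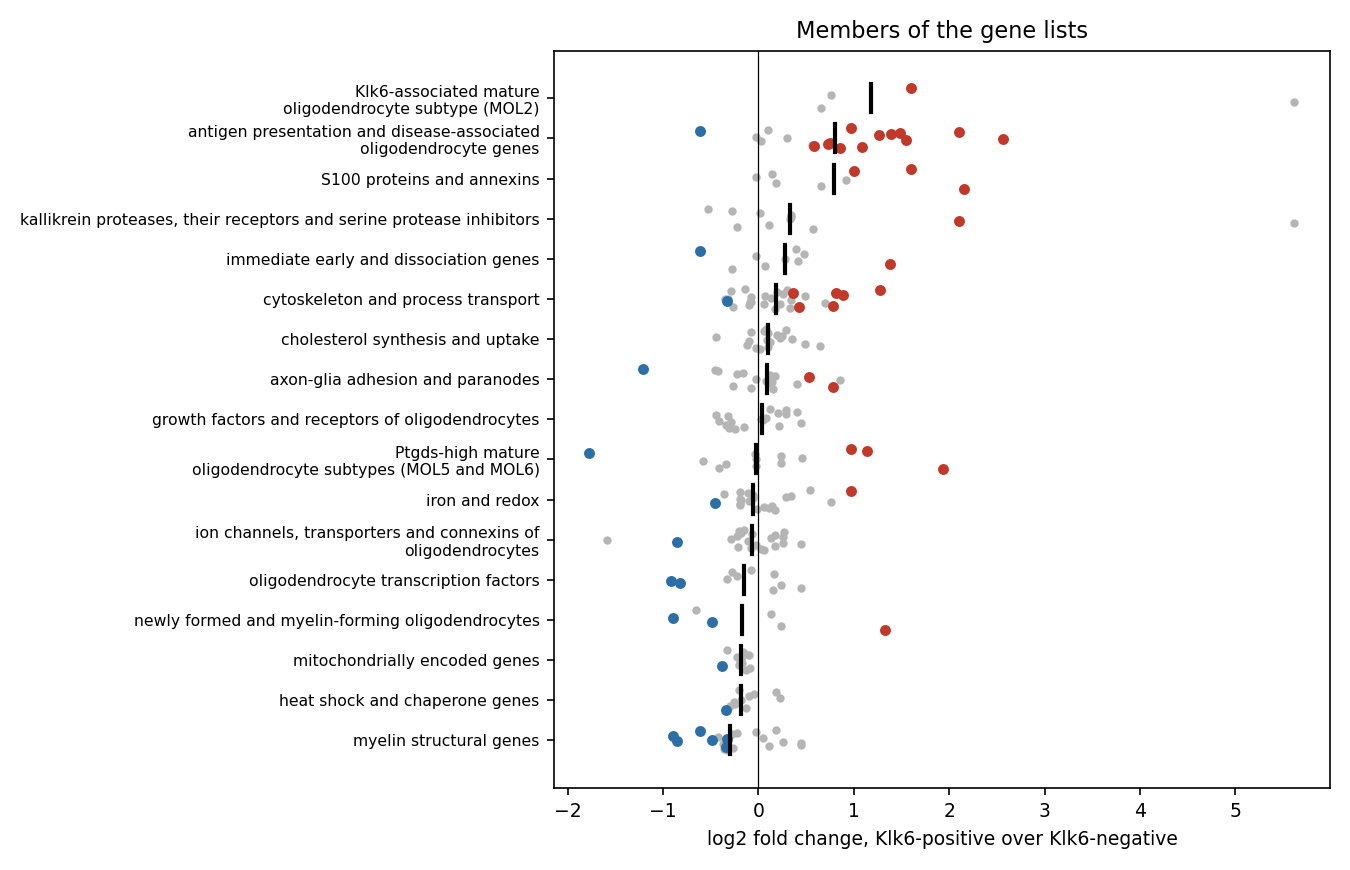
Log2 fold change of every tested member of 17 gene lists, red for members that passed higher, blue for those that passed lower, grey for the rest, with a black bar at each median. The medians run from -0.30 (myelin structural genes) to 1.18 (4 tested genes of the Klk6-associated subtype), and the gene at 5.62 is Klk8.

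Outside the lists and the interferon-response genes given above, the largest increases that had 1 direction in each library were low in count. Aven, an inhibitor of apoptosis, was counted 5, 18 and 26 times in positive and 0, 2 and 1 times in negative cells (log2 fold change 3.18, SE 0.68, edgeR adjusted p = 0.00145). Cacng5, an auxiliary subunit of glutamate receptors, was counted 4, 17 and 20 times against 1, 3 and 0 times (2.64, edgeR adjusted p = 0.0149). Each was seen in at most 12.5% of positive cells of any library. Iqsec1 (1.82, edgeR adjusted p = 0.000899), Gadd45g (1.99, 0.000145), Fxyd7 (2.32, 0.0249), Rnase4 (2.10, 0.0166) and Cd200 (1.92, 0.0357) completed this set of increases.

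The largest decreases were Ptgds, Wfdc18, Clmn and Sptan1. Wfdc18, a secreted protein of the whey acidic protein family, was counted 0, 2 and 9 times in positive and 3, 16 and 10 times in negative cells (-2.37, SE 0.58, edgeR adjusted p = 0.00882). Clmn, the gene for calmin, stood at 52.5, 20.4 and 57.1 CPM against 99.7, 77.8 and 159 CPM (-1.53, edgeR adjusted p = 0.000387). The amino acid transporter gene Slc38a2 (-1.06, edgeR adjusted p = 6.78e-06) and the centriole gene Ccp110 (-0.99, 0.000370) fell as well. Sptan1 did not pass without library 1 (-1.20, edgeR adjusted p = 0.164) or library 3 (-1.19, 0.307).

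Further decreases on no list were Phlda1 (-1.23, edgeR adjusted p = 0.00715), the scaffold gene Magi2 (-1.19, 0.0440), the protocadherin gene Pcdh17 (-1.10, 0.0458) and Faim2, an inhibitor of apoptosis (-1.10, 0.00117). Igsf8, of the immunoglobulin superfamily (-1.06, edgeR adjusted p = 0.0134), Smco3 (-1.04, 0.00352), Trp53bp2 (-1.02, 0.00946) and the F-box gene Fbxo7 (-0.94, 0.0156) fell too. Each was lower in the positive arm of all 3 libraries, and the arms overlapped for Phlda1, Igsf8 and Smco3. These calls were less firm than those above. Without library 1 Pcdh17 did not pass (-0.81, edgeR adjusted p = 0.223). Without library 2 Pcdh17 (-0.78, edgeR adjusted p = 0.421), Igsf8 (-0.75, 0.451), Trp53bp2 (-0.69, 0.535) and Fbxo7 (-0.86, 0.293) did not, and Phlda1 and Magi2 were too low to be tested. Without library 3 Faim2 (-0.92, edgeR adjusted p = 0.143), Fbxo7 (-0.89, 0.201), Igsf8 (-1.10, 0.0730), Magi2 (-1.09, 0.336) and Smco3 (-0.93, 0.218) did not. In depth-matched pairs Smco3 alone of these 8 passed again (-1.24, edgeR adjusted p = 0.0308).

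Neither arm held the cells with exactly 1 Klk6 UMI. Ptgds stood at 2991, 5729 and 8445 CPM in these cells of libraries 1 to 3, below the negative arm and above the positive arm in each library. Apod stood at 12033, 6096 and 7192 CPM. Tested against the same negative cells, which the main comparison shares, 3 of 2071 genes passed: Apod (0.78, edgeR adjusted p = 0.000389), Ptgds (-0.59, 0.00659) and S100b (0.91, 0.0172). At exactly 2 UMIs, Apod stood at 14302, 7351 and 12737 CPM and Ptgds at 3127, 4134 and 5832 CPM, while at 3 or more Apod reached 26912, 15872 and 16127 CPM.

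**Figure D5:**
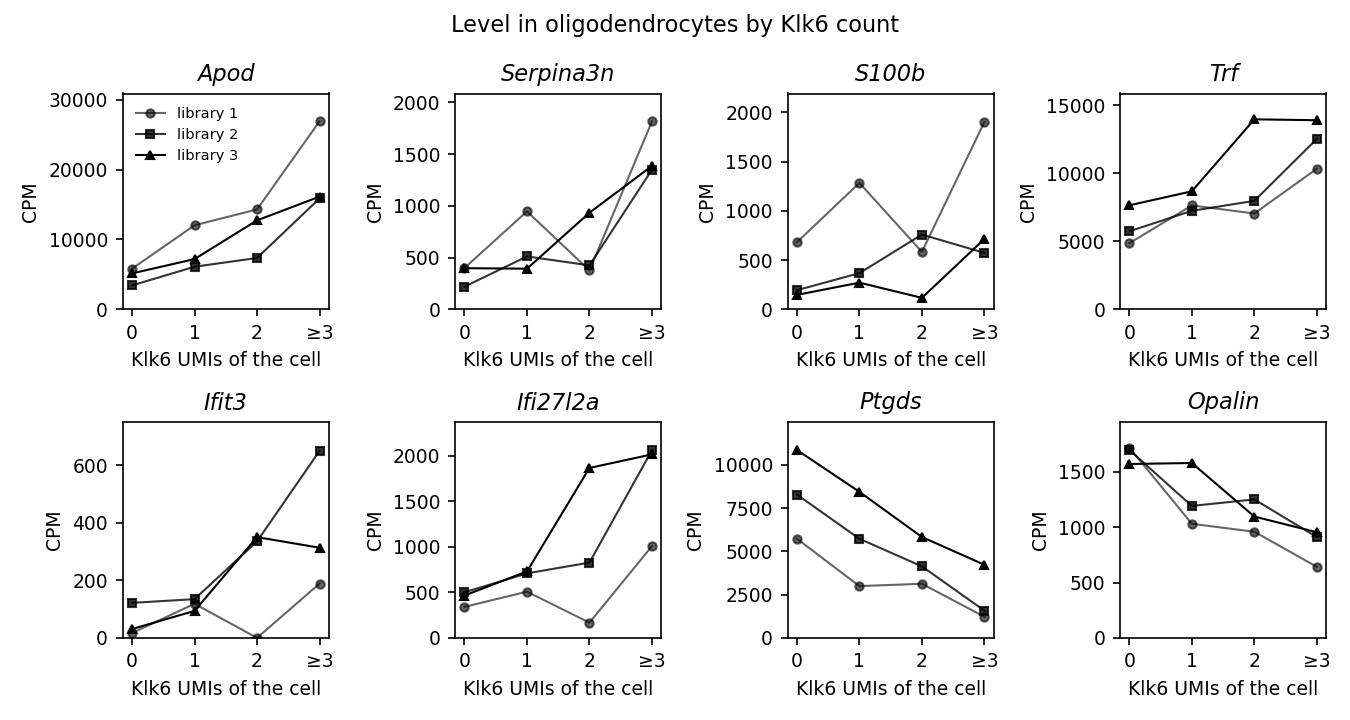
Level (CPM of summed counts) of 8 genes in oligodendrocytes with 0, 1, 2 and at least 3 Klk6 UMIs, 1 line per library. Apod climbs in all 3 libraries and Ptgds is lowest at 3 or more UMIs in all 3, while S100b and Ifit3 are uneven at 2 UMIs, where each library holds 15 to 21 cells.

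Transcripts of other cell types were present at low levels in both arms. Of the markers tested, 0 passed in either direction in edgeR for neurons (6 tested), astrocytes (6), microglia (5), endothelial cells (2), macrophages, mural cells, precursors and ependymal cells (1 each). Of these, 1 microglia and 1 endothelial marker had an unadjusted p under 0.05, and DESeq2 called 0. The 10 neuron markers summed to 175, 1020 and 253 CPM in positive and 357, 1035 and 275 CPM in negative cells, and the 10 microglia markers to 271, 466 and 191 CPM against 457, 906 and 55.0 CPM. The 10 astrocyte markers summed to 1015, 853 and 407 CPM against 615, 758 and 520 CPM, with Aqp4 and Gja1 at 0 by the rule. Mural cell markers in library 2 summed to 194 CPM in positive and 87.5 CPM in negative cells. The part of these transcripts in the differences above was not tested beyond a stricter gate, which removed every cell with a UMI of Snap25, Syt1 or 5 microglial and endothelial genes and left 73 of 2363 genes passing in edgeR.

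The FLiCRE constructs had few counts in oligodendrocytes, most of them in library 2, where mCherry stood at 61.1 CPM in positive and 34.0 CPM in negative cells. The mCherry feature was counted 1, 27 and 5 times in positive and 2, 14 and 0 times in negative cells, TEV 0, 12 and 4 against 1, 8 and 1 times, and tTA 0, 11 and 3 against 0, 4 and 2 times. Counts of this size were below the filter for testing, and a difference was not detectable at this depth.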

How the data were processed

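The authors used the v2 chemistry of the 10x Genomics 3′ kit, per the labels. They deposited UMI counts, whole numbers for each gene in each cell, written by Cell Ranger 3.0.0 per the file headers, on mm10 per the submitters' processing notes. The annotation release and the way barcodes were called as cells are not given in the sources used here. The counts are 1 pooled matrix, and libraries were taken from the barcode suffix, which nothing ties to a numbered sample.

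Cells were gated, and counts summed per library and arm, in Python 3.11.15 (numpy 2.4.6, pandas 2.3.3). No doublet caller was run: the gate removes cells with markers of astrocytes, precursors and neurons and cells above 6000 UMIs. Sums were tested in edgeR 4.0.16 (TMM, filterByExpr, robust quasi-likelihood fit, library as block because both arms of a pair come from 1 library, Benjamini-Hochberg over all genes), after a check on simulated counts. Standard errors are the absolute log2 fold change over the root of the F statistic. Exact Clopper-Pearson intervals have 95% confidence, and a count of 0 allows 3 counts. Genes are named if they are among the 15 largest increases or decreases that passed and moved the same way in every library, if they passed and stand on a list, or if they are among the 3 highest members of a list. Other names (the kallikreins, further listed members that did not pass, and the genes with the response element) were chosen after their values were seen. Members named for their level alone that did not pass are partly given only in their list's counts. Alternatives were DESeq2 1.42.0, other scalings, filters, gates and Klk6 thresholds, the fit without the block, and leaving out each library. The cells, lists and tests were chosen with earlier results of these data known. Sequences and positions are from RefSeq tables of GRCm38.p6, matched by symbol for 128 of the 130 called genes and Klk6.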

Additional observations from a re-analysis of the deposited data

How the results depend on the processing

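The count of 129 genes (88 higher, 41 lower) was within 1.5 times of its value with 3 of 4 gate genes, Klk6 thresholds of 1 or 3 UMIs, scaling by totals only and package defaults. It was 66 (48 and 18) at 1500 to 6000 UMIs, 73 (53 and 20) under the stricter gate, 53 (34 and 19) in depth-matched pairs, an alternative chosen after seeing the data, and 36 (31 and 5) with no low-count filter, where 14080 genes were tested. DESeq2 called 31 (21 and 10) and gave no adjusted p for 71.7% of genes. Of the 129, 74 had an adjusted p in DESeq2, 30 of them passed, and all 129 kept their sign. In DESeq2, 6 antigen presentation list members passed (13 in edgeR), 3 myelin genes (6), 4 cytoskeleton genes (7) and 0 axon-glia genes (3). The Ptgds-high list had 4 in both, and the MOL2 and kallikrein lists had 2 each (1 each in edgeR). With no replicate block 0 genes passed (0 and 0). Leaving out 1 library gave 50 to 172 genes (31 to 103 higher, 17 to 69 lower): 172 without library 1, 50 without library 2 and 80 without library 3. Of the 129, 126, 94 and 122 could then be tested, all with the same sign, and 116, 43 and 72 passed again. The planned matching of 2 negative cells to each positive one used every negative cell and changed nothing. The depth ratio of 1.27 was 1.18 at 1500 to 6000 UMIs and 0.972 in depth-matched pairs. No result changed sign as a call, but these settings reuse the same cells or counts, so kept signs are not independent evidence. Depth limits the comparison to 4471 of 28001 features, and low genes rest on few counts.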

Other observations

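Some further genes that stand on no list rose, and are given as values chosen after they were seen. Gltp, a glycolipid transfer protein, stood at 927, 1307 and 1486 CPM in Klk6-positive and 631, 729 and 715 CPM in Klk6-negative cells (log2 fold change 0.85, edgeR adjusted p = 6.87e-07). Pmp22, peripheral myelin protein 22, stood at 254, 323 and 434 CPM against 66.5, 187 and 196 CPM (1.04, edgeR adjusted p = 3.59e-05). The lysosomal and endosomal membrane genes Cd63 (0.73, edgeR adjusted p = 6.46e-06) and Lamp2 (0.69, 0.0127) were higher in all 3 libraries, as was Plin3, which coats lipid droplets (1.10, 0.00251). Tspo, a protein of the outer mitochondrial membrane used as a marker of glial reaction, was counted 13, 95 and 45 times against 5, 24 and 6 times (1.67, edgeR adjusted p = 1.47e-05). Socs3, a feedback inhibitor of cytokine signalling, was counted 7, 40 and 44 times against 3, 8 and 5 times (1.79, edgeR adjusted p = 0.000910).

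In the opposite direction, Ptn, the growth factor pleiotrophin, stood at 481, 735 and 432 CPM in positive and 864, 1217 and 752 CPM in negative cells (-0.78, edgeR adjusted p = 7.39e-06). Qdpr, an enzyme of tetrahydrobiopterin recycling, differed by -0.60 (edgeR adjusted p = 4.81e-05), and the nuclear noncoding RNA Malat1, the most abundant of the genes tested, by -0.38 (edgeR adjusted p = 0.00426). Malat1 was lower in the positive arm of each library, at 75958, 39996 and 46141 CPM against 84956, 52908 and 67933 CPM.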
